A study of Mus musculus with 6 samples.

Results

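The transcription factors that direct the choice of a thymocyte between the CD4 helper and the CD8 cytotoxic lineage were followed in double positive (DP) thymocytes, immature thymic T cells with CD4 as well as CD8 on their surface. The 10 factors, *Zbtb7b*, *Runx1*, *Runx3*, *Cbfb*, *Gata3*, *Tox*, *Myb*, *Bcl11b*, *Satb1* and *Ets1*, were chosen by gene symbol for their known role. Earlier results of these data were known when they were chosen. All 10 were among the 23183 symbols of the expression files. DP thymocytes had been sorted from the thymus of C57BL/6 mice aged 6 weeks, and mRNA-seq was available for 3 libraries of WT (*Nsrp1*f/f) and 3 libraries of NSrp70-cKO (*Nsrp1*f/f CD4Cre) cells. Both genotypes carried the floxed alleles of *Nsrp1*, which encodes the splicing regulator NSrp70, and the cKO additionally carried a Cre transgene driven by the *Cd4* promoter, which deletes the floxed part in thymocytes. No WT library carried the Cre transgene, so the effects of the transgene and of the deletion cannot be told apart. Whether the 3 libraries of a genotype came from separate mice is not given in the sources used here, and the p-values measure only the spread between these libraries.

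DP thymocytes that receive a signal through the T cell receptor become CD4 or CD8 single positive (SP) cells. ThPOK, the product of *Zbtb7b*, commits cells to the CD4 lineage and represses the CD8 program, whereas RUNX3 bound to its partner CBFβ silences *Cd4* and *Zbtb7b* and commits cells to the CD8 lineage. GATA3, TOX and MYB act upstream of ThPOK on the CD4 side, RUNX1 with CBFβ represses *Cd4* at earlier stages, and BCL11B, SATB1 and ETS1 act on enhancers and silencers of these loci in both lineages. ThPOK and RUNX3 are therefore low in DP thymocytes and increase as cells leave this stage.

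Expression was measured as FPKM, which is the number of fragments divided by transcript length and by sequencing depth, so that levels of different genes can be compared per length. Depth was estimated from the steps that 1 fragment makes in the low values as 20.66 to 20.78 M fragments (M, mega) in WT against 13.08, 20.6 and 17.36 M in the cKO 1, 2 and 3 libraries. Changes were tested with limma on log2(FPKM + 1) over the 10326 genes that reached an FPKM of 1 in 3 or more libraries, with Benjamini-Hochberg adjustment over these genes and a threshold of 0.05. Such log2 fold changes understate the change of a low gene. *Nsrp1*, listed under its older symbol *Ccdc55*, had an FPKM of 20.2, 20.7 and 21.1 in WT and of 17.7, 15.8 and 15.0 in cKO (log2 fold change -0.34, standard error (SE) 0.077, adjusted p = 0.00675). All cKO values of *Nsrp1* were below the WT values, and an FPKM of the whole gene does not separate the floxed part from the rest. The WT libraries differed from each other by 1.51 to 1.61 times the counting noise (chi-square per gene) and the cKO libraries by 29.8 to 60.7 times. *Xist* had an FPKM of 69.8 to 72.0 in WT and of 4.07 to 5.44 in cKO, and the 4 Y-linked genes *Uty*, *Kdm5d*, *Eif2s3y* and *Ddx3y* were listed at 0 for WT throughout and between 5.83 and 43.8 for cKO. The sex of the mice and the genotype therefore cannot be told apart, also for the 10 factors, none of which lies on chromosome X or Y.

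Of the 10 factors, 7 fell in cKO, 1 (*Cbfb*) rose and 2 (*Runx1* and *Ets1*) did not pass the test. The factors that distinguish the lineages at the point of choice fell furthest: *Zbtb7b* was 14.6-fold and *Runx3* 2.84-fold lower in mean FPKM. Over all tested genes 65.5% were called in either direction, 29.8% as lower and 35.8% as higher, so that a call alone says little in these libraries. The median log2 fold change was -0.48 over the 10 factors and 0.039 over all tested genes. In 8 of the 10 factors all cKO values were below all WT values, which held for 33.3% of all tested genes, and in 9 of 10 the ranges of the genotypes did not overlap in either direction, against 72.5% of all tested genes. *Zbtb7b* had passed the filter on low values through its WT libraries alone, so it could be tested only because WT was high. When the near-identical WT libraries were counted as 1 sample, 2 factors were still called, *Zbtb7b* (adjusted p = 0.0294) and *Runx3* (adjusted p = 0.0311), beside 8.73% of all tested genes called as lower.

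**Figure D1:**
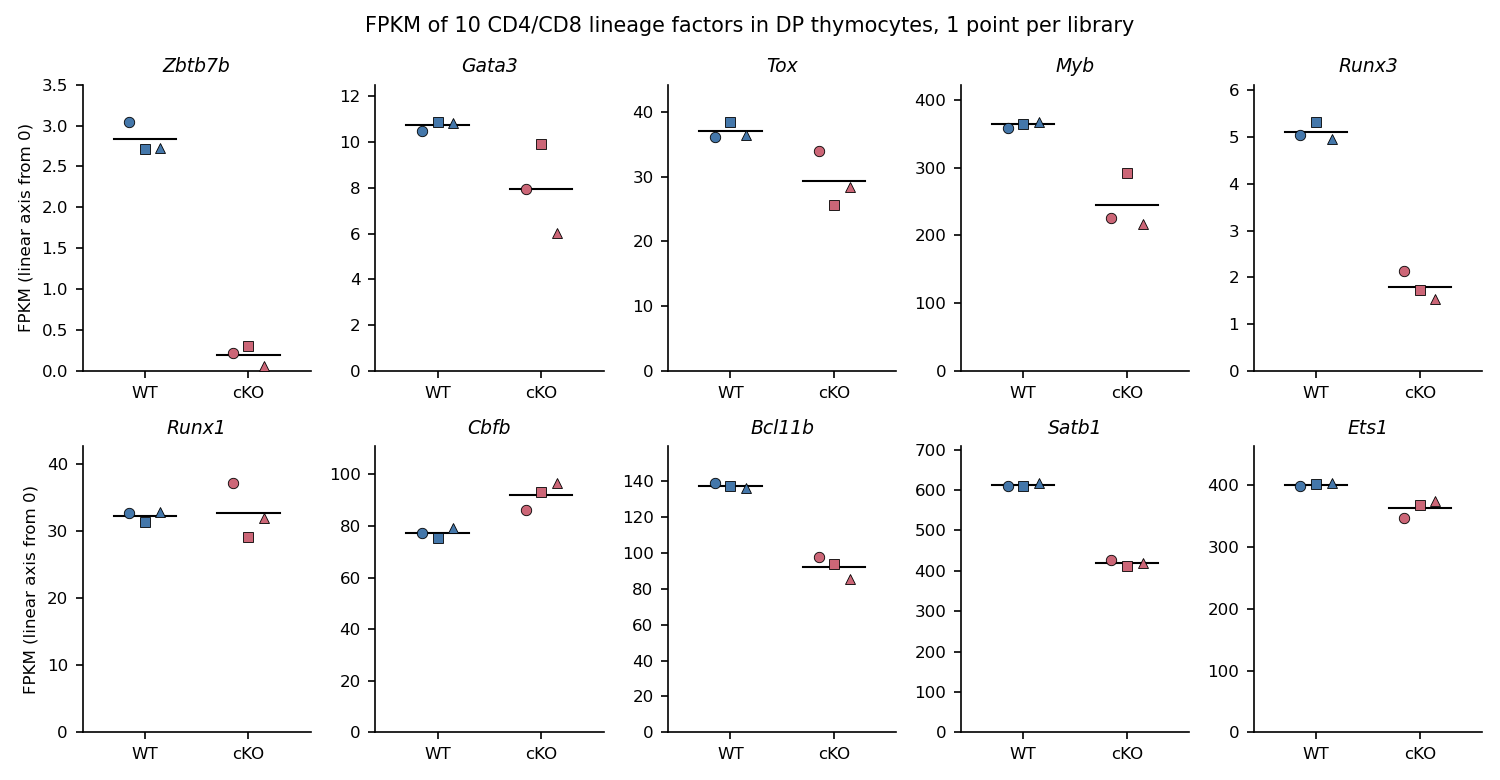
FPKM of the 10 factors in each library, on linear axes from 0 with a separate scale for each gene. Blue points are WT and red points cKO libraries, circles, squares and triangles are replicates 1, 2 and 3, and the line is the mean of 3 libraries. *Zbtb7b* and *Runx3* show the widest relative gap between the genotypes, and *Runx1* shows overlapping ranges.

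*Zbtb7b* (ENSMUSG00000028042) lies on the minus strand of chromosome 3 from 89377644 to 89394776 (mm10). It was the lowest of the 10 factors, with WT values of 3.05, 2.72 and 2.73 FPKM and cKO values of 0.215, 0.300 and 0.0649 FPKM. The genotypes were far apart: the lowest WT value was 9.07 times the highest cKO value, and the mean fell from 2.83 ± 0.186 to 0.193 ± 0.119 (SD, n = 3 each), or to 6.83% of WT. With the longest annotated transcript of 4333 nucleotides these values correspond to about 262, 233 and 233 fragments in WT and about 12, 26 and 5 fragments in cKO. The cKO libraries thus held some *Zbtb7b* mRNA, at a depth where counting error is a large part of the differences among them. The cKO 2 library, which was as deep as the WT libraries, had the most of it. The log2 fold change was -1.68 (SE 0.105, adjusted p = 0.000101), the 50th lowest of 10326. With a pseudocount of 0.1 in place of 1 it was -3.41, and after correction for GC content and length it was -1.01 (adjusted p = 0.000492), the exons of *Zbtb7b* having a GC content of 59.9%.

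*Runx3* (ENSMUSG00000070691), on the plus strand of chromosome 4 from 135120652 to 135177990, reached an FPKM of 5.05, 5.32 and 4.96 in WT and of 2.13, 1.73 and 1.53 in cKO. Every cKO library was below every WT library, the lowest WT value being 2.33 times the highest cKO value. The mean fell from 5.11 ± 0.189 to 1.80 ± 0.306 (SD, n = 3 each), which is 35.2% of WT. The estimated fragments were 378 to 406 in WT and 98 to 131 in cKO, so that *Runx3* was measured with less counting error than *Zbtb7b*. The log2 fold change was -1.13 (SE 0.0988, adjusted p = 0.000191) and was -0.67 (adjusted p = 0.00126) after correction for GC content and length, with a GC content of 55.9% in its exons.

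The DNA before the start sites of these 2 factors is shown because RUNX proteins are known to bind at the *Zbtb7b* locus and because these windows, alone among the 15 searched, held the RUNX motif. RefSeq (GRCm38.p6) gave windows of 250 bases before the start for 8 of the 10 factors, without an entry for *Tox* and *Ets1*. Among the 15 windows of these 8 factors, the RUNX motif TGTGGT, searched on both strands, was found in one window of *Zbtb7b* and in the distal window of *Runx3*. Of 32851 promoter windows of the same length, 14.0% held a match, so that matches in 2 of 15 windows are near this background. The *Zbtb7b* window is chr3:89387672-89387921 on the minus strand and the *Runx3* window is chr4:135120395-135120644 on the plus strand. Both are printed 5′ to 3′ with matches in capitals, a match on the other strand appearing as ACCACA.
Zbtb7b: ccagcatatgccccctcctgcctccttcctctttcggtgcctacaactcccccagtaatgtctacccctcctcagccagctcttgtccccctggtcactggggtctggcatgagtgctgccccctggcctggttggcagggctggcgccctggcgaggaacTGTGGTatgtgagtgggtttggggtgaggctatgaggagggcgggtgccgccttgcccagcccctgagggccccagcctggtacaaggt
Runx3: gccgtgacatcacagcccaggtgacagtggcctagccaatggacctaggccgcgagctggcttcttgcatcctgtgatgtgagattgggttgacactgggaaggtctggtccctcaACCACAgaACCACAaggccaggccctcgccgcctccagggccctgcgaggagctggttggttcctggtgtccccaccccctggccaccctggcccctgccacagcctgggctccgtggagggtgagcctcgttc

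The match of *Zbtb7b* began 89 bases before the start, and those of *Runx3* began 134 and 126 bases before the start, separated by a pair of bases. A second start of each gene, at chr3:89393379-89393628 for *Zbtb7b* and at the proximal chr4:135152295-135152544 for *Runx3*, had no match in its window. The motifs of the other factors were searched in the same way. The ETS motif CCGGAA (12.0% of all windows) was found in 1 window of *Gata3* and in the proximal window of *Runx1*. The MYB motif TAACNG (19.8%) was found in the distal window of *Runx1* and in 2 overlapping windows of *Satb1*. Both windows of *Satb1* hold the same site, so it is 1 match seen 2 times. The GATA motif AGATAA (9.99%) was found in none of the 15 windows. A match describes the letters of a window and was not tested for binding.

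The gene-level FPKM values do not say which start of *Runx3* was used. The study designed RT-PCR primers for *Zbtb7b*, *Gata3* and *Runx3*. Their position in the transcripts is given because it bears on which messages such an assay can see. From RT-PCR on DP thymocytes sorted by CD69, the paper reported no effect of the cKO on genes of T cell development. These included targets of lineage commitment, which its text does not name. The paper proposes that NSrp70 does not regulate transcription factors of SP maturation. The mRNA-seq values of *Zbtb7b*, *Gata3* and *Runx3* were lower in cKO, and the reason for this difference was not tested. In the primer of *Runx3* the capitals mark the bases that lie beyond the splice junction.
Runx3 forward: acaccaaccttcatacgagACC
Runx3 reverse: tcatcattgccggccatcac
Zbtb7b forward: aaatcccgtgtgtcatcgct
Zbtb7b reverse: gtgagtactgtgggtgcctc
Gata3 forward: cctccggcttcatcctcttc
Gata3 reverse: ggcggataggtggtaatggg

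The first 19 bases of the *Runx3* forward primer matched chr4:135121145-135121163 and its last 3 matched chr4:135152788-135152790, so that it spans a junction found only in the transcript from the distal start, which is 1 of 2 coding transcripts. Its reverse partner (chr4:135155324-135155343) matched both coding transcripts, and the product is 350 bases. The *Zbtb7b* primers (chr3:89381105-89381124 and chr3:89380815-89380834) matched 4 of 8 coding transcripts with a product of 310 bases. The matched transcripts are the longest, of 3639 to 4333 bases. The other coding transcripts have 354 to 544 bases and end before the primer sites. The *Gata3* forward primer (chr2:9874748-9874767) matched 2 of 2 coding transcripts and its reverse partner (chr2:9874496-9874515) 1 of 2. The *Gata3* product is 272 bases. FPKM values and these primers thus need not cover the same transcripts of *Runx3*, *Zbtb7b* and *Gata3*.

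*Gata3* (ENSMUSG00000015619), *Tox* (ENSMUSG00000041272) and *Myb* (ENSMUSG00000019982), the factors upstream of ThPOK, fell less. *Gata3*, on the minus strand of chromosome 2 from 9857078 to 9890034, reached an FPKM of 10.5, 10.9 and 10.8 in WT and of 7.96, 9.89 and 6.01 in cKO. All cKO values were below the WT values, but cKO 2 came close, the lowest WT value being 1.06 times the highest cKO value. The mean was 74.1% of WT (10.7 ± 0.211 against 7.95 ± 1.94, SD, n = 3 each), with a log2 fold change of -0.41 (SE 0.149, adjusted p = 0.0427). This call was lost when any library other than cKO 2 was left out (adjusted p of 0.0704 to 0.103). The log2 fold change was -0.25 without cKO 3 (adjusted p = 0.0704) and -0.56 without cKO 2 (adjusted p = 0.00383).

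*Tox*, an HMG-box factor on the minus strand of chromosome 4 from 6686353 to 6991557, reached an FPKM of 36.1, 38.4 and 36.4 in WT and of 34.0, 25.7 and 28.4 in cKO. The cKO values were all lower, cKO 1 being nearest to WT, and the mean was 79.4% of WT. The log2 fold change was -0.33 (SE 0.107, adjusted p = 0.0278). Leaving out any 1 WT library (adjusted p of 0.0676 to 0.0916) or cKO 3 (adjusted p = 0.0836) ended the call.

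*Myb*, a factor also required for survival and rearrangement in DP cells, lies on the minus strand of chromosome 10 from 21124935 to 21160984. Its FPKM was 359, 365 and 368 in WT and 225, 291 and 216 in cKO, without overlap. The mean was 67.1% of WT (364 ± 4.31 against 244 ± 41.0, SD, n = 3 each) and the log2 fold change -0.59 (SE 0.120, adjusted p = 0.00431). Among the cKO libraries, cKO 2 held the most *Myb*, *Gata3* and *Zbtb7b* and the least *Runx1* and *Tox*. *Tox* thus ordered the cKO libraries differently from *Gata3* and *Myb*.

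*Runx1* (ENSMUSG00000022952), the family member that is abundant in DP cells, lies on the minus strand of chromosome 16 from 92601466 to 92826149. Its FPKM was 32.7, 31.3 and 32.9 in WT and 37.1, 29.1 and 31.9 in cKO, with overlapping ranges. The mean was 32.3 ± 0.827 in WT and 32.7 ± 4.08 in cKO (SD, n = 3 each), and the log2 fold change was 0.0096 (SE 0.097, adjusted p = 0.935), so that a change smaller than the spread of the cKO libraries would not have been detected. *Runx2*, the third member of the family, was too low to be tested, with an FPKM of 0.616, 0.605 and 0.816 in WT and of 0.325, 0.300 and 0.125 in cKO. *Cbfb* (ENSMUSG00000031885), the shared partner that binds no DNA itself, lies on the plus strand of chromosome 8 from 105170674 to 105217989. It had an FPKM of 77.4, 75.4 and 79.1 in WT and of 86.3, 93.3 and 96.6 in cKO. All cKO values of *Cbfb* were higher, with a mean of 119% of WT (77.3 ± 1.86 against 92.0 ± 5.25, SD, n = 3 each) and a log2 fold change of 0.25 (SE 0.069, adjusted p = 0.0158). The direction of *Cbfb* depended on the scaling: the log2 fold change was -0.31 (adjusted p = 0.0162) with all libraries set to the same FPKM total, -0.035 after quantile normalization and -0.043 after correction for GC content and length. Leaving out any 1 WT library ended the call as well (adjusted p of 0.0530 to 0.0826).

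*Bcl11b* (ENSMUSG00000048251), *Satb1* (ENSMUSG00000023927) and *Ets1* (ENSMUSG00000032035) are abundant in DP thymocytes. *Bcl11b*, a zinc finger factor that keeps T cell identity, lies on the minus strand of chromosome 12 from 107910403 to 108003602. Its FPKM was 139, 137 and 136 in WT and 97.7, 93.6 and 85.5 in cKO. The groups were well apart, and the mean fell to 67.2% of WT (log2 fold change -0.57, SE 0.0734, adjusted p = 0.00066). After correction for GC content and length the log2 fold change of *Bcl11b* was -0.30 (adjusted p = 0.00526).

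*Satb1*, a chromatin organizer that binds enhancers of *Zbtb7b*, *Cd4* and *Cd8*, lies on the minus strand of chromosome 17 from 51736187 to 51833290. It was the highest of the 10 factors, with an FPKM of 609, 610 and 616 in WT and of 427, 412 and 420 in cKO. The cKO libraries lay within a narrow range (419 ± 7.46, SD, n = 3), and the mean was 68.5% of WT (log2 fold change -0.55, SE 0.0799, adjusted p = 0.00107). *Ets1*, a factor that supports *Runx3* expression and CD8 differentiation, lies on the plus strand of chromosome 9 from 32636221 to 32757820. Its FPKM was 399, 402 and 403 in WT and 348, 368 and 375 in cKO. All cKO values of *Ets1* were lower, with a mean of 90.6% of WT, but the test was not passed (log2 fold change -0.14, SE 0.077, adjusted p = 0.138). Quantile normalization gave -0.69 for *Ets1* (adjusted p = 0.0003), -1.19 for *Satb1* and -1.12 for *Myb*.

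**Figure D2:**
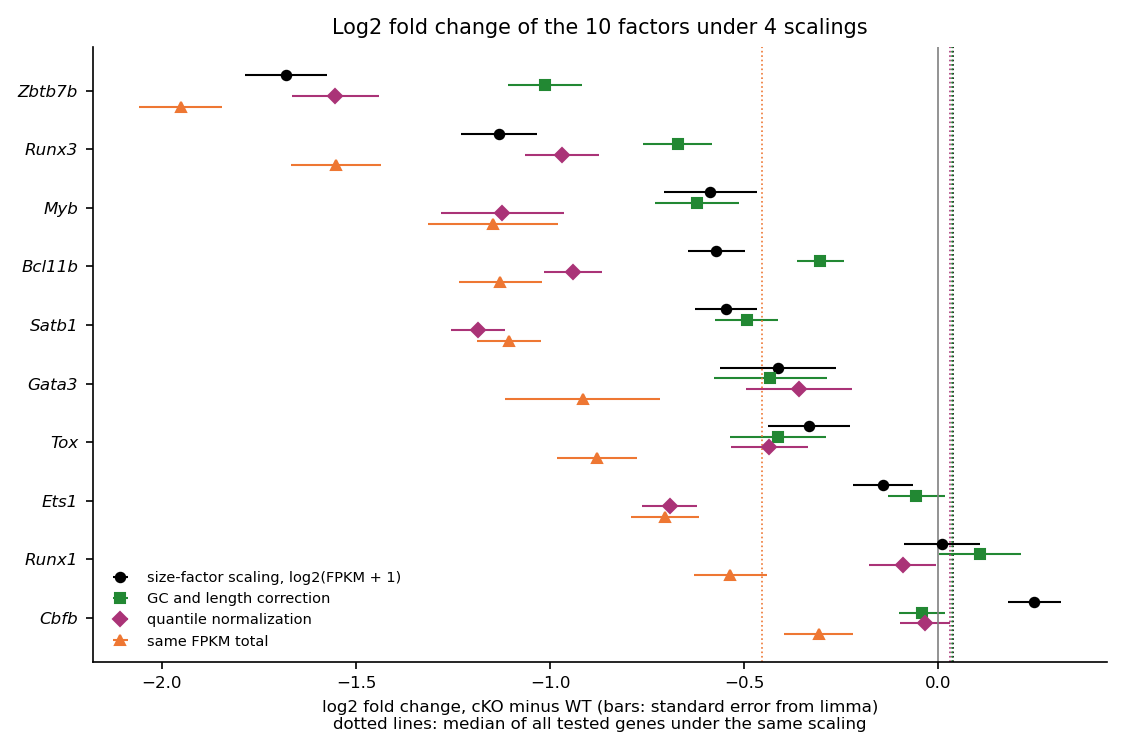
Log2 fold change (cKO minus WT) of the 10 factors with its standard error from limma, 3 libraries per genotype, under 4 scalings. Dotted vertical lines give the median of all tested genes under each scaling, which is -0.45 with the same FPKM total and between 0.029 and 0.039 otherwise. *Zbtb7b* lies lowest under all 4 scalings and *Runx3* next under all but quantile normalization, where *Satb1* and *Myb* lie below it, and *Cbfb* and *Runx1* cross 0 with the scaling.

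Summed over all symbols, FPKM came to 521296 to 531517 per WT library but to 791104, 701396 and 850548 for the cKO libraries, so the choice of scaling matters. With the same FPKM total in every library, the median of all tested genes moved to -0.45 and all 10 factors were called lower. After subtraction of that median the log2 fold changes of 8 factors lay between -1.50 (*Zbtb7b*) and -0.25 (*Ets1*), that of *Runx1* was -0.081 and that of *Cbfb* was 0.15.

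The order of the levels per length changed little. In WT, mean FPKM decreased from *Satb1* through *Ets1*, *Myb*, *Bcl11b*, *Cbfb*, *Tox*, *Runx1*, *Gata3* and *Runx3* to *Zbtb7b*, and no neighbours in this order overlapped. In cKO the order was the same except that *Runx1* stood above *Tox*. The ranges of *Runx1* and *Tox* overlapped there, as did those of *Bcl11b* and *Cbfb*. The WT level of *Zbtb7b* was at the 12.4th percentile of all tested genes and that of *Runx3* at the 22.5th, whereas *Satb1*, *Ets1* and *Myb* were above the 98th.

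Ratios within a library do not depend on the scaling of that library and ask whether the balance of factors differed. The ratio of *Zbtb7b* to *Runx3* was 0.603, 0.511 and 0.550 in WT and 0.101, 0.174 and 0.0423 in cKO. It was lower in every cKO library, with a difference in log2 ratio of -2.61 (exact permutation test, two-sided, p = 0.1). An exact test of 3 against 3 libraries cannot give a p below 0.1, so the threshold of 0.05 cannot be reached for any ratio. With 1 added to each FPKM the difference was -0.55, and with the correction for GC content and length on that scale it was -0.34, so its size rests largely on the low values of *Zbtb7b*.

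The ratio of *Runx1* to *Runx3* was 6.47, 5.89 and 6.63 in WT and 17.4, 16.8 and 20.8 in cKO, a shift of the *Runx* mRNAs away from *Runx3* in every cKO library (difference in log2 ratio 1.53, exact permutation p = 0.1). It was 0.78 after correction for GC content and length. The ratio of *Gata3* to *Runx3* was 2.08, 2.04 and 2.18 in WT and 3.73, 5.73 and 3.92 in cKO (difference in log2 ratio 1.06, exact permutation p = 0.1). After the same correction this difference was 0.24, and the corrected values did not separate the genotypes fully (exact permutation p = 0.2). The summed FPKM of *Runx1*, *Runx2* and *Runx3* over that of *Cbfb* was 0.495, 0.495 and 0.489 in WT and 0.458, 0.333 and 0.348 in cKO, again lower in every cKO library (difference in log2 ratio -0.39, exact permutation p = 0.1). No corrected value was computed for this ratio, because *Runx2* was too low to be tested. The corrected log2 fold changes of its other genes were 0.11 for *Runx1*, -0.67 for *Runx3* and -0.043 for *Cbfb*. Whether the sum stays lower relative to *Cbfb* on corrected values was thus not tested. The p-values of these 4 ratios are all at the smallest value possible and were not adjusted further.

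**Figure D3:**
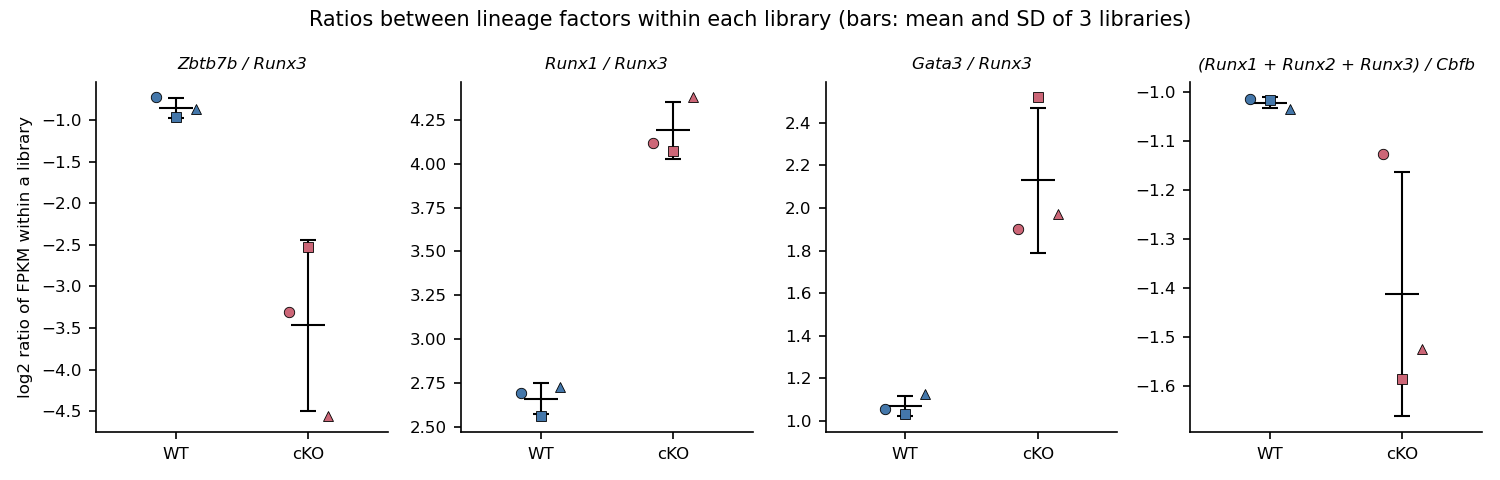
Log2 ratio of FPKM between lineage factors within each library, in 4 panels with separate axes that do not start at 0. Blue points are WT and red points cKO libraries, circles, squares and triangles are replicates 1, 2 and 3, and bars give mean and SD of 3 libraries. The WT and cKO libraries do not overlap in any of the 4 ratios.

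Cells that have left the DP stage express more ThPOK and RUNX3, and most markers of such cells fell along with both factors. Of 8 markers of mature SP thymocytes, 7 fell and 1 rose in cKO. *Ccr7*, a chemokine receptor for entry into the medulla, had an FPKM of 16.2, 15.1 and 15.2 in WT and of 1.16, 1.42 and 2.50 in cKO (log2 fold change -2.64). *S1pr1*, the receptor for exit from the thymus, had an FPKM of 4.59, 4.11 and 4.79 in WT and of 0.133, 0.203 and 0.201 in cKO (log2 fold change -2.21). *S1pr1* and *Slfn1* passed the filter on low values through WT alone and so could be called only as lower. The summed FPKM of the 8 markers was 148 to 152 in WT and 107 to 128 in cKO, and their median log2 fold change was -1.74. In bulk libraries, fewer cells of a type and less mRNA per cell cannot be told apart, and the part of mature cells in the lower *Zbtb7b* and *Runx3* was not tested. Of 10 DP markers, 6 rose and 3 fell. When any 1 library other than cKO 2 was left out, 5 or 6 were called higher and 1 lower. The summed FPKM of the 10 DP markers was 5097 to 5182 in WT and 6947 to 9039 in cKO. As a share of the FPKM total of the library this sum was 0.964% to 0.994% in WT and 0.990% to 1.14% in cKO, with overlapping ranges, and with the same FPKM total 2 DP markers were called higher and 4 lower. The summed FPKM of 6 markers of earlier, double negative cells was 12.6 to 13.6 in WT and 8.53 to 11.1 in cKO. Markers of other cells were low: the sums of 6 B cell markers were 22.8 to 24.2 and 26.7 to 39.4, almost all of it *Cd79b*, those of 7 myeloid markers 6.64 to 8.76 and 6.04 to 7.71, and those of 6 thymic epithelial markers 3.56 to 4.01 and 1.92 to 3.67, with *Krt5* and *Foxn1* at 0 throughout. The 5 erythroid markers summed to 0.654 to 1.08 in WT and 3.50 to 10.9 in cKO, mostly *Hba-a1*, and the 5 of 7 NK and γδ T cell markers that were listed summed to 6.79 to 8.84 and 3.93 to 4.22.

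Among 12 coreceptors and other readouts of the lineages, 6 rose and 5 fell. When any 1 WT library was left out, 4 were called higher and 4 lower. *Cd4* had an FPKM of 486, 487 and 486 in WT and of 723, 566 and 650 in cKO (log2 fold change 0.40, adjusted p = 0.0175). *Cd8a* rose from 680, 688 and 687 to 1163, 1003 and 1138 (log2 fold change 0.68, adjusted p = 0.00134), and *Cd8b1* from 1248, 1275 and 1240 to 2603, 1809 and 2426 (log2 fold change 0.84, adjusted p = 0.00364). The FPKM of these coreceptor genes was thus higher in every cKO library, but their direction depended on the scaling. With the same FPKM total the log2 fold change was -0.16 for *Cd4* (adjusted p = 0.127), 0.12 for *Cd8a* (adjusted p = 0.175) and 0.28 for *Cd8b1* (adjusted p = 0.0396), and after quantile normalization it was -0.26 for *Cd4* (adjusted p = 0.0344), -0.040 for *Cd8a* and -0.021 for *Cd8b1*. The recombinase genes *Rag1* (0.61) and *Rag2* (0.56), which DP cells use to rearrange the T cell receptor α locus, also rose on the log2 scale, a call that both lost with the same FPKM total, and *Rag1* was called lower after quantile normalization (-0.18, adjusted p = 0.038). These 5 genes are also 5 of the 6 DP markers that rose. *Cd40lg*, the CD4 helper ligand that ThPOK permits, had an FPKM of 1.59 to 2.03 in WT and of 0.112 to 0.473 in cKO (log2 fold change -1.16, and -1.77 after correction for GC content and length). *Itgae*, the CD103 integrin chain of CD8 cells and a target of RUNX3, had 2.05 to 2.45 in WT and 0.171 to 0.413 in cKO (log2 fold change -1.32). *Cd40lg* and *Itgae* passed the filter on low values through WT alone, like *Zbtb7b*, and so could be called only as lower. *Il7r*, the interleukin 7 receptor of SP cells and also in the list of mature markers, fell from 5.86 to 6.00 in WT to 1.06 to 1.22 in cKO (log2 fold change -1.67), and *Socs1*, a cytokine signal inhibitor, had a log2 fold change of -0.58, which was -0.083 (adjusted p = 0.308) after correction for GC content and length. With all libraries set to the same FPKM total, 1 of the 12 readouts rose and 7 fell.

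Of the other 15 transcription factors of CD4 and CD8 choice, 12 fell, 1 (*Tcf12*) rose and 2 (*Stat6* and *Id3*) did not pass the test, with a median log2 fold change of -0.56. *Tcf12* had a log2 fold change of 0.30, but -0.26 (adjusted p = 0.0221, called lower) with the same FPKM total and -0.10 (adjusted p = 0.188) after quantile normalization. The furthest was *Egr1*, an immediate early gene of T cell receptor signals, with an FPKM of 24.8, 24.2 and 25.1 in WT and of 10.8, 7.58 and 8.73 in cKO (log2 fold change -1.37, SE 0.119, adjusted p = 0.000191). Its relative *Egr2* (-0.76) and *Nfatc1* (-0.86), which respond to the same receptor, fell as well on the log2 scale. The HMG-box factor *Lef1* had an FPKM of 158, 151 and 157 in WT and of 77.4, 89.6 and 83.4 in cKO, without overlap (log2 fold change -0.89). *Tcf7*, at an FPKM of 1434 to 1449 in WT, fell by 0.56 on the log2 scale. *Patz1* (-0.77), which encodes the factor MAZR that represses *Cd8* and *Zbtb7b*, *Tcf3* (-0.71), which encodes E proteins, and *Stat5a* (-0.66), a mediator of interleukin 7 signals, complete the factors with a log2 fold change of at least 0.5 in size. After correction for GC content and length the log2 fold changes were smaller for several of these, with -0.78 for *Egr1*, -0.50 for *Nfatc1* and -0.27 for *Patz1*, and the calls of *Tcf3* (-0.16, adjusted p = 0.165) and *Stat5a* (-0.091, adjusted p = 0.456) ended.

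The co-repressors and chromatin partners were called in both directions, as were all tested genes (29.8% as lower and 35.8% as higher). None of the list counts was tested against these shares. Of 15, 8 fell, 3 rose and 4 did not pass the test, with a median log2 fold change of -0.28. Those that fell included the Groucho proteins that RUNX factors recruit, *Tle3* (-0.90), *Tle1* (-0.65) and *Tle4* (-0.60), the GATA cofactor *Zfpm1* (-1.08), the BAF subunits *Arid1a* (-0.91) and *Smarca4* (-0.71) and the NuRD helicase *Chd4* (-0.72), all as log2 fold changes. Those that rose were the deacetylases *Hdac2* (0.69) and *Hdac1* (0.58) and the BAF subunit *Smarce1* (0.50), which binds the *Cd4* silencer. Among subunits of the BAF complex, *Arid1a* went from an FPKM of 76.6 to 78.7 in WT to 37.3 to 47.3 in cKO and *Smarce1* from 89.1 to 92.4 in WT to 120 to 139 in cKO. With all libraries set to the same FPKM total 0 of the 15 were called higher and 12 lower, and *Smarce1* had a log2 fold change of -0.054. After correction for GC content and length the log2 fold change was -0.20 for *Arid1a* (adjusted p = 0.0423), -0.33 for *Chd4*, -0.44 for *Tle3*, -0.39 for *Tle1*, -0.56 for *Zfpm1* and -0.10 for *Smarca4*, whose call ended (adjusted p = 0.516), as did that of *Smarce1* (0.19, adjusted p = 0.0986).

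Of 14 paralogs of the 10 factors, 8 were expressed above the filter. *Tox2* (-0.89), *Zbtb7a* (-0.60) and *Tox3* (-0.51) fell by at least 0.5 on the log2 scale, *Ets2* fell by less, *Tox4* rose and 3 did not pass the test. *Tox2* passed the filter on low values through WT alone. The log2 fold change of *Tox4* was 0.27 (adjusted p = 0.0182), and this call ended without any 1 WT library (adjusted p of 0.0562 to 0.0781), without cKO 3 (adjusted p = 0.0524) and after quantile normalization (adjusted p = 0.0755), and with the same FPKM total it was called lower (-0.28, adjusted p = 0.00887). After correction for GC content and length *Zbtb7a* was no longer called (0.083, adjusted p = 0.502), nor was *Ets2* (-0.048, adjusted p = 0.554), whose call also ended without any 1 WT library (adjusted p of 0.0900 to 0.0928), and *Tox2* had a log2 fold change of -0.52. *Zbtb7a*, which encodes the close relative LRF that acts with ThPOK, had an FPKM of 14.0, 14.3 and 13.7 in WT and of 10.9, 7.76 and 8.41 in cKO, and was thus well above *Zbtb7b* in every library. *Zbtb7c* was listed at 0 in all 6 libraries. *Mybl2*, a paralog of *Myb* used in proliferating cells, had an FPKM of 10.9, 10.3 and 10.6 in WT and of 15.2, 9.69 and 13.2 in cKO, with overlapping ranges (adjusted p = 0.236).

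**Figure D4:**
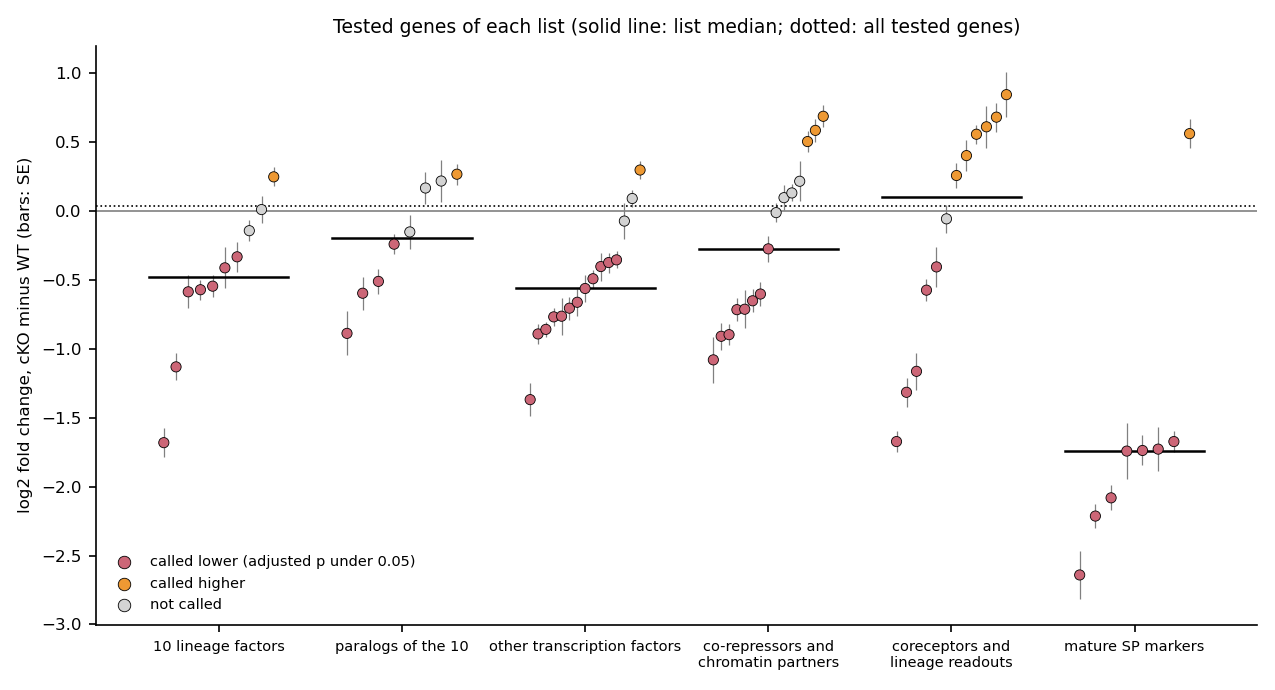
Log2 fold change (cKO minus WT, bars are the standard error from limma, 3 libraries per genotype) of each tested gene in the 10 lineage factors and 5 lists. Red points passed the test as lower, orange points as higher and grey points did not pass. Solid lines are list medians, -0.48 for the 10 factors and -1.74 for the mature SP markers, and the dotted line is the median of all tested genes, 0.039.

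The genes most like *Zbtb7b* over the 6 libraries, by Pearson r of log2(FPKM + 1) among 6319 tested genes with a mean FPKM of 10 or more, were *Fam78a* (r = 0.9997) and *Dot1l* (r = 0.9994). For *Runx3* they were *Rapgef1* and *Fxr2* (r = 0.9995 each), and for *Satb1* they were *Xist* (r = 0.9999) and *Fnbp1* (r = 0.9997). The 6 libraries form 2 groups of 3, so any gene that differs between the groups with little spread has a high r: 918 of the candidates had an r above 0.95 with *Zbtb7b*, 777 with *Runx3* and 815 with *Satb1*. These values describe the libraries and carry no test.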

How the data were processed

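DP thymocytes of 3 WT and 3 NSrp70-cKO libraries were grouped by the genotype in the sample labels. After depletion of ribosomal RNA and poly(A) selection, directional libraries were read from both ends (Illumina NovaSeq). Trimming used fastx trimmer and alignment to mm10 used Tophat. The authors deposited the FPKM values from Cufflinks, 1 per gene symbol. Versions, gene annotation and strand setting are not given in the sources used here, so reads of overlapping antisense genes may be included. FPKM values are not counts, so no count test was used.

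Symbols were matched to GENCODE mouse release 21 (GRCm38, the assembly of mm10): of 23183, 22110 matched directly, 647 by way of RefSeq synonyms, 38 were ambiguous and 388 stayed unmatched. Depth was estimated at 2611 coding genes whose only transcript exceeds 1000 nucleotides, assuming fragments of 200 nucleotides. The estimates cover counting error only. Median-of-ratios size factors (1.00 to 1.01) scaled the libraries, and genotype was tested on log2(FPKM + 1) using limma 3.58.1 (lmFit, eBayes with trend; R 4.3.3) after the filter of FPKM 1 in 3 libraries. Ratios were compared by an exact permutation test in Python 3.11.15 (scipy 1.17.1). The fit was tested on simulated data first. Alternatives were pseudocounts of 0.1 and 0.5, no filter and an FPKM minimum of 5, no size factor, the same FPKM total, quantile normalization, eBayes without trend, a replicate block, GC content and length splines with 5 degrees of freedom (10241 genes, 99.2% of those tested) alone and with the block, WT libraries counted as 1 sample, and each library left out. Promoter sequences and gene synonyms came from RefSeq (GRCm38.p6) and primers from the study's primer list. The 10 factors, the gene lists and the alternatives were chosen with earlier results of these data known. Named genes were the 10 factors, *Nsrp1*, list genes past the threshold with a log2 fold change of at least 0.5 in size, and *Runx2*, *Cd4*, *Cd8a*, *Cd8b1* and *Mybl2* in any case. Other genes were named to complete counts of 5 or fewer or to describe marker lists, after their values were seen. One gene of the marker lists is counted but not reported by name here, for a reason unrelated to its values.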

Additional observations from a re-analysis of the deposited data

How the results depend on the processing

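*Zbtb7b* and *Runx3* were called lower in all 17 fits that included them (an FPKM minimum of 5 removed both). Their log2 fold changes were -3.41 to -1.01 and -1.55 to -0.67. These fits reused the same 6 libraries. *Zbtb7b* reached the FPKM minimum of 1 through WT alone, so the filtered fits could call it only as lower. Without the filter *Zbtb7b* was also called lower (log2 fold change -1.68, adjusted p = 0.000326). *Bcl11b*, *Myb* and *Satb1* were called lower in 17 of 18 fits, the exception being the fit with WT libraries counted as 1 sample (adjusted p of 0.0731, 0.132 and 0.134). *Tox* was called lower in 13 and *Gata3* in 10 of 18 fits, *Cbfb* was called higher in 10 and lower in 1, *Ets1* was called lower in 3 and *Runx1* in 1.

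Setting the same FPKM total gave 902 genes higher and 6181 lower, against 3693 and 3073, with 0 factors higher, and reversed *Cbfb* (-0.31) and *Runx1* (-0.54, adjusted p = 0.00168). Quantile normalization left 0 factors higher and reversed *Cbfb* (-0.035) and *Runx1* (-0.091, adjusted p = 0.378). The correction for GC content and length left 0 factors higher and reversed *Cbfb* (-0.043), also when combined with the replicate block (0 higher, *Cbfb* -0.043). *Runx1* ranged from -0.087 (without cKO replicate 1) to 0.094 (without cKO replicate 2) when 1 library was left out, and was -0.013 without WT replicate 2. Counting the WT libraries as 1 sample gave 1645 calls (744 higher, 901 lower) and 2 factors called (0 higher, 2 lower), against 6766 and 8. The lone WT sample was then assumed to vary like the cKO libraries.

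With each library left out, the total was 5585 to 7667 genes (3073 to 4113 higher, 2504 to 3554 lower), and the factors called were 5 to 9 (0 to 1 higher, 5 to 8 lower). The lowest number of factors, 5, came from leaving out any 1 WT library. The difference in log2 ratio of *Zbtb7b* to *Runx3* then lay between -3.08 and -2.06, that of *Runx1* to *Runx3* between 1.44 and 1.59, that of *Gata3* to *Runx3* between 0.87 and 1.18 and that of the summed *Runx* genes to *Cbfb* between -0.53 and -0.30. Same-numbered WT and cKO libraries did not deviate together (r = -0.022, 0.038 and 0.031). The WT libraries differed by only 1.51 to 1.61 times the counting noise, so this check cannot tell whether the numbers pair them. The replicate block gave 6467 calls and 8 factors called, and the ratios kept their direction in every numbered pair (exact p = 0.25 within 3 pairs, the smallest possible). The cause of these changes was not tested. The depth limits *Zbtb7b* most, at about 5 to 26 fragments in cKO.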
